A study of Homo sapiens with 6 samples.

Results

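The genes of the cytosolic ribosomal proteins were followed in Hep G2 cells, a human hepatocellular carcinoma line that grows in culture. They were taken by name from a table of 23524 genes: symbols made of RPL or RPS and a number, with a final A, L or X allowed, plus RPLP0, RPLP1, RPLP2 and RPSA. The rule found 81 genes, namely 43 of the large subunit (60S), 31 of the small subunit (40S), 3 of the stalk of the large subunit and 4 paralogues (RPL3L, RPL10L, RPL39L and RPS27L). The 77 genes other than the paralogues are called core genes here. Controls (n = 3 libraries) were cells infected with an empty lentiviral vector. The other group (n = 3 libraries) was infected with a lentivirus carrying EFTUD2, a GTPase of the spliceosome, both kinds of cells expressed their vector stably, and the methods give selection with puromycin. Neither the promoter of the vector nor whether the cells were clones or pools was given in the sources used here. The paper describes its data in general as from 3 independent experiments, without saying how the RNA-Seq replicates 1 to 3 were cultured. The p-values therefore measure only the spread between these libraries. The comparison asks whether the mRNA of the translation machinery differed between these cells.

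A ribosome is built from ribosomal RNA and a fixed set of proteins, in most cases 1 copy of each, so a cell needs these proteins in matched amounts. The small subunit reads the mRNA and the large subunit joins the amino acids, while the stalk of the large subunit recruits the GTPases that drive elongation. In vertebrates most of these mRNAs begin with a C followed by a run of pyrimidines, the 5′ terminal oligopyrimidine (TOP) tract, through which mTOR signalling and the RNA-binding protein LARP1 set how much they are translated and stored. A few subunits have paralogues that are switched on in single tissues, such as RPL3L in heart and skeletal muscle and RPL10L in the testis.

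The start sites of 8 of these genes are shown, since the TOP tract is the feature that most of the group shares and since they include genes that stood apart below. The sequences are from RefSeq (GRCh38.p14), run 5′ to 3′ on the strand of the gene, and hold the last 40 bases before the annotated start followed by the first 20 bases of exon 1. Capitals mark a C and at least 6 pyrimidines after it, beginning within 10 bases before to 20 after the start; lower case throughout means that no such run was found. RPL31 and RPS27 had the largest increases of their subunits among genes whose groups did not overlap, RPL3 encodes a core protein near the catalytic centre, RPS6 is the substrate of the S6 kinases, RPLP0 is the base of the stalk, RPS26 and RPS27L had lower values in the EFTUD2 cells, and RPL39 is the parent of RPL39L.
RPL31: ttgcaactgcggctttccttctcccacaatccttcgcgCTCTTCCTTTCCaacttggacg
RPS27: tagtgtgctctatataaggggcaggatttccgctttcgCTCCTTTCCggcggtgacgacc
RPL3: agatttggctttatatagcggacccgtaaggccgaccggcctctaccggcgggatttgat
RPS6: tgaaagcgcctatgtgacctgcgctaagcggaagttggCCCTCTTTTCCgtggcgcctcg
RPLP0: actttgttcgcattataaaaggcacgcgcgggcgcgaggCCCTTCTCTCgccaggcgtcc
RPS26: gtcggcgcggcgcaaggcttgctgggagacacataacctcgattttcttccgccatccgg
RPS27L: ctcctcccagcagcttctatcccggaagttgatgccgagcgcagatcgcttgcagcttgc
RPL39: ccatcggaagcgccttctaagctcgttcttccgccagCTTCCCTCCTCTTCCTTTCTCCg
These stretches lie at chr2:101002249-101002308 (+) for RPL31, chr1:153990722-153990781 (+) for RPS27, chr22:39319604-39319663 (-) for RPL3, chr9:19380217-19380276 (-) for RPS6, chr12:120201092-120201151 (-) for RPLP0, chr12:56041878-56041937 (+) for RPS26, chr15:63157458-63157517 (-) for RPS27L and chrX:119791611-119791670 (-) for RPL39.

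A pyrimidine run near the start was common to the group. Such a run could begin away from the start, as at base 12 of exon 1 in RPL27. The shares below are therefore not those of mRNAs that begin with the tract. Of the 77 core genes, 62 matched a RefSeq promoter entry, and 50 of these (80.6%) held the pyrimidine run, against 14.7% of all 27305 promoters in the reference, 14.9% of those of genes tested here, 10.1% of 69 mitochondrial ribosomal protein genes and 17.0% of 47 ribosome biogenesis genes. The runs had a median length of 11 bases, and the run of RPL39, at 22 bases, was the longest of those shown. The letters CTTTC were found on the sense strand of the same window in 45.2% of core genes, 4.07% of all promoters, 4.35% of mitochondrial ribosomal protein genes and 8.51% of biogenesis genes. CCGGAAG, the core of ETS family sites, was searched on both strands of the whole 300 base promoter and was held by 33.9% of core genes against 10.7% of all promoters, 18.5% of those of genes tested here, 40.6% of mitochondrial ribosomal protein genes and 38.3% of biogenesis genes. AAGATGGCG, as in YY1 sites, was held by 8.06% of core genes against 1.85% of all, 3.77% of genes tested, 18.8% of mitochondrial ribosomal protein genes and 10.6% of biogenesis genes. GGGCGG, as in SP1 sites, was at 54.8% in core genes, above the 44.6% of all promoters but below the 68.3% of genes tested, 62.3% of mitochondrial ribosomal protein genes and 70.2% of biogenesis genes. TATAAA, searched from 50 to 15 bases before the start, was at 3.23% against 2.76% of all.

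The files hold FPKM, fragments scaled to transcript length and library size, and the read depth behind them is unknown. The FPKM of all genes summed to between 404342 and 434542 per library. EFTUD2 itself measured 41.1, 54.4 and 46.3 FPKM in control replicates 1 to 3 and 106.6, 102.9 and 109.5 FPKM in EFTUD2 replicates 1 to 3, a ratio of means of 2.25, and the groups did not overlap (limma adjusted p = 0.131). All 10 Hep G2 and liver markers examined, among them ALB and AFP, averaged 1 FPKM or more in the controls. EFTUD2 replicate 3 stood apart from the other libraries in most of the results that follow, so the main counts and the largest differences are also given without it.

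Ribosomal protein mRNA made up a large share of each library. The 81 genes summed to 60178, 61034 and 61589 FPKM in control replicates 1 to 3 and to 65380, 63338 and 86938 FPKM in EFTUD2 replicates 1 to 3. These sums were 14.9%, 14.7% and 14.8% of all FPKM in the controls and 15.7%, 14.9% and 20.01% in the EFTUD2 libraries. Every EFTUD2 library lay above every control, by little in replicates 1 and 2 and by much in replicate 3. Against the control mean, the sums of EFTUD2 replicates 1 to 3 were 1.07, 1.04 and 1.43 times as high, and the ratio of group means was 1.18, or 1.06 without EFTUD2 replicate 3. The 23443 genes outside the group summed to 0.997, 1.03 and 0.989 times their control mean. In RNA from whole cultures, a change in the RNA per cell and a change in the kinds of cells cannot be told apart.

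**Figure D1:**
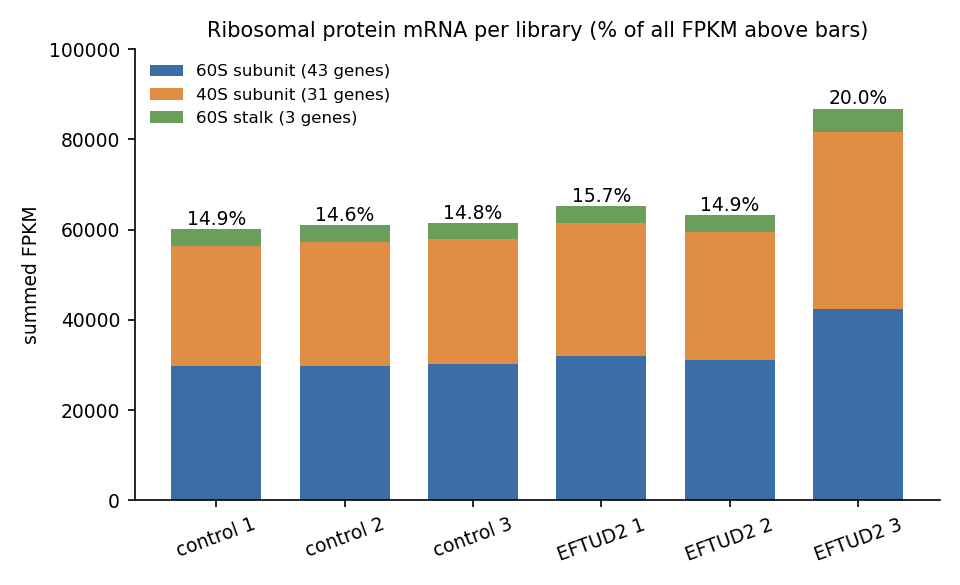
Summed FPKM of the 60S, 40S and stalk genes in each of the 6 libraries (stacked bars, axis from 0), with the share of all FPKM that these genes took written above each bar. These 77 core genes summed to between 60089 and 65290 FPKM in the controls and EFTUD2 replicates 1 and 2, and to 86860 FPKM, or 19.99% of the library, in EFTUD2 replicate 3.

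Both subunits and the stalk had like ratios. The sum over the 43 large subunit genes was 1.18 times the control mean in the EFTUD2 group, that over the 31 small subunit genes 1.19 times, and that over the 3 stalk genes 1.17 times. Without EFTUD2 replicate 3 these ratios were 1.05, 1.06 and 1.04. Within a library, where scaling cancels, the ratio of the 40S to the 60S sum was 0.895, 0.916 and 0.910 in the controls and 0.912, 0.914 and 0.921 in EFTUD2 replicates 1 to 3. The 2 groups of ratios overlapped. This balance held in EFTUD2 replicate 3 too, where both sums were at their highest.

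Single members spread widely around that total. In control replicate 1 the 77 core genes ran from 26.5 FPKM for RPL9 to 1741 FPKM for RPL37A, with a median of 729 FPKM and quartiles of 504 and 987 FPKM. The median of the core genes was 758 and 760 FPKM in control replicates 2 and 3, and 788, 788 and 1072 FPKM in EFTUD2 replicates 1 to 3. Above 1000 FPKM stood 18, 18 and 20 core genes in the controls and 26, 25 and 43 in the EFTUD2 libraries. The spread between core genes, as the SD of their log2 levels, stayed between 1.003 and 1.08 in every library. The median coefficient of variation of a core gene was 4.21% among the controls and 18.3% among the EFTUD2 libraries, and 2.79% between EFTUD2 replicates 1 and 2 alone. Reads of these genes also match processed pseudogenes: GENCODE v29 lists 1133 pseudogenes named after core genes, and 76 of the 77 core genes have at least 1. None of these pseudogenes is in the table, and how the counting divided such reads was not given in the sources used here, so the level of each gene is uncertain to that extent.

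Each gene was then compared between the groups on log2(FPKM + 1), with limma and Benjamini-Hochberg adjustment over the 17222 genes that averaged at least 0.1 FPKM. Of the 81 ribosomal protein genes 79 passed this filter, RPL3L and RPL10L being too low, and RPL39L passed through its EFTUD2 libraries alone. None of the 79 had an adjusted p under 0.05 (limma, smallest 0.402), against 0 of all genes (0%). At an unadjusted p under 0.05, 3 members were higher in the EFTUD2 cells (RPL39L, RPS20 and RPS4X) and 0 lower, against 4.4% of all genes higher and 7.9% lower. The count of 3 ran from 0 without control replicate 1 to 5 without EFTUD2 replicate 2, when 492 of 17148 and 638 of 17071 genes tested were higher. Differences between group means were above 0 in 73 members and below 0 in 6, where 37.3% of all genes were above 0 and 62.7% below. The members had a median of 0.24 (quartiles 0.19 and 0.28) beside a median of -0.07 over all genes. All 3 EFTUD2 libraries lay above all 3 controls in 36 of the 79 members (45.6%), against 7.92% of all genes, and below all 3 in 2 members (2.53%), against 19.4% of all genes. In the other 41 members the groups overlapped. Among the 77 core genes alone, which leave out RPL39L, 72 differences were above 0 and 35 genes lay above every control.

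These counts depended on the libraries and on the scale. Without EFTUD2 replicate 3 the median over the 79 members was 0.09 beside -0.04 over all genes. Above 0 were 65 members and below 0 were 14, against 40.6% and 59.4% of all genes. The groups still did not overlap in 36 higher members, against 14.8% of all genes, and in 4 lower ones, against 25.2%. In that smaller comparison 1 member had an adjusted p under 0.05, against 0.973% of all genes. It was RPL39L, which is at 0 in the controls and passed the filter only through the group where it is high, so nothing is read from that call. Without EFTUD2 replicate 2 the count of members above every control was 56, against 10.5% of all genes. Under median of ratios scaling 57 members were above every control, against 11.9% of all genes, and 0 below, against 12.1%. When the libraries were instead forced to 1 common distribution (quantile scaling), 5 members were above every control, against 9.48% of all genes, and 6 below, against 15.5%, and the median of the members was 0.02.

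**Figure D2:**
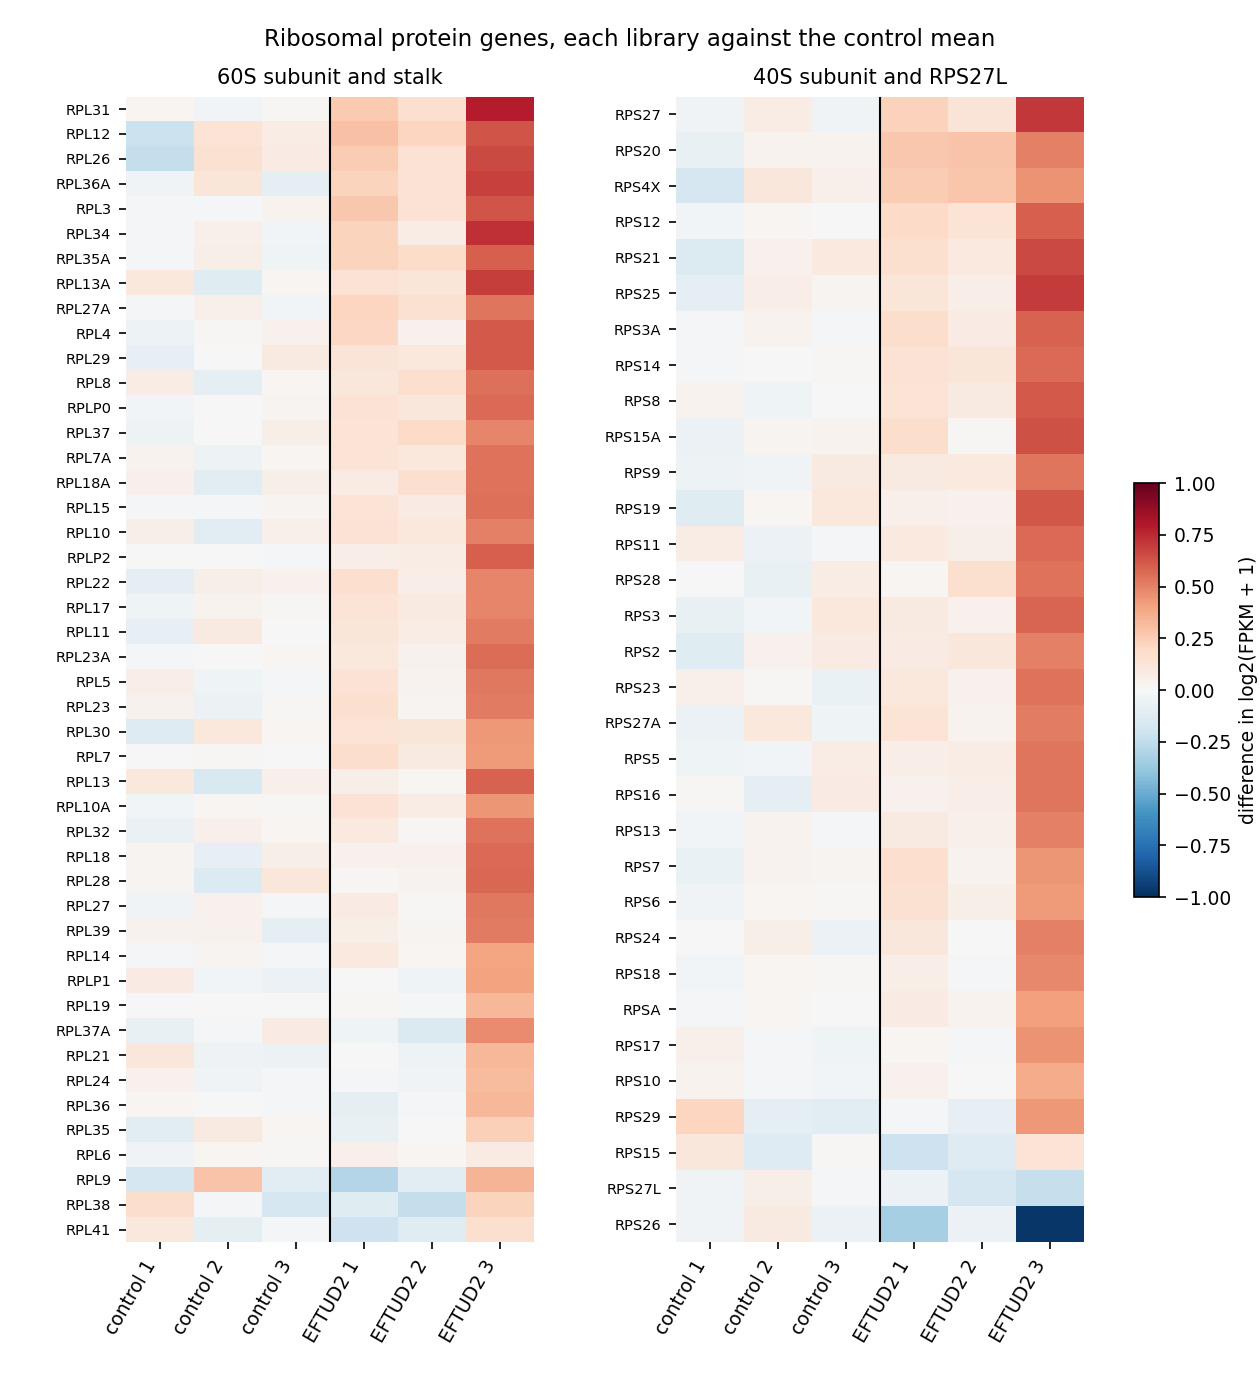
Difference of each library from the control mean in log2(FPKM + 1), for the 77 core genes and RPS27L (rows, ordered by the difference between groups) in the 6 libraries (columns), red above and blue below the control mean. EFTUD2 replicate 3 held the highest value in 76 of the 77 core genes, while replicates 1 and 2 lay close to the controls, and RPS26 ran the other way. Under quantile scaling the members divided into 5 above and 6 below every control.

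Read library by library, the members lay together. The median member differed from its control mean by 0.11, 0.06 and 0.53 on the log2 scale in EFTUD2 replicates 1 to 3, where the median of all genes differed by -0.05, -0.04 and -0.15. Above every control stood 56 of the 79 members in EFTUD2 replicate 1, 39 in replicate 2 and 77 in replicate 3, where the shares of all genes were 20.4%, 23.7% and 25.8%. The highest of the 6 values was in EFTUD2 replicate 3 for 76 of 79 members, against 20.5% of all genes. EFTUD2 replicate 1 was above replicate 2 in 60 members. By subunit, 21 of 43 large subunit genes, 12 of 31 small subunit genes and 2 of 3 stalk genes had every EFTUD2 library above every control. Of all genes 7.92% did. The differences ran from -0.06 to 0.40 over the large subunit genes (median 0.24), from -0.45 to 0.36 over the small subunit genes (median 0.23) and from 0.12 to 0.27 over the stalk genes.

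**Figure D3:**
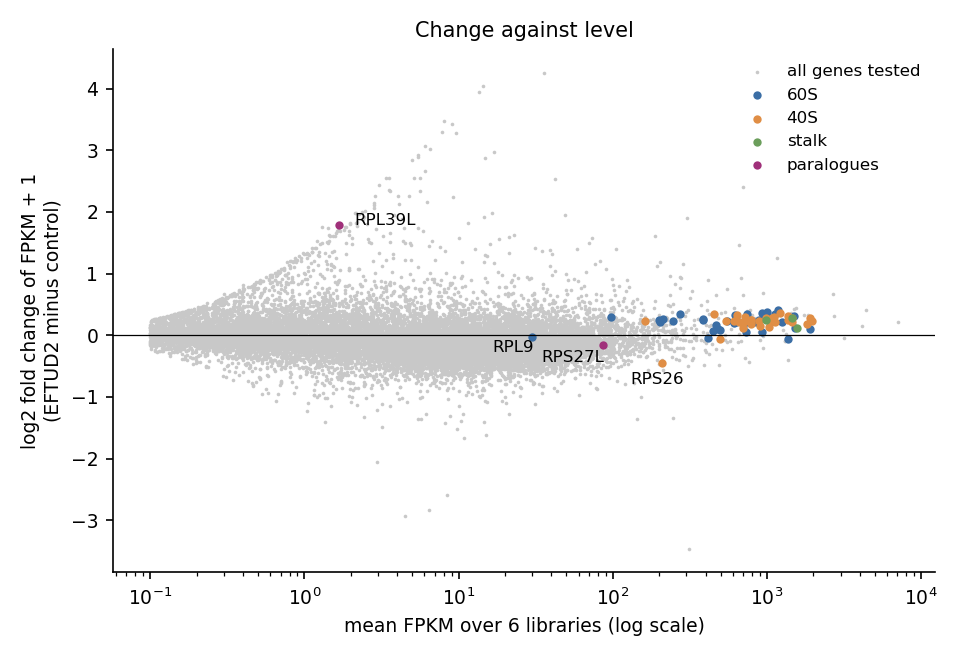
Difference between groups (log2 scale, EFTUD2 minus control, from limma) against the mean FPKM over 6 libraries (log axis) for all 17222 genes tested in grey and the 79 ribosomal protein genes in colour. Most ribosomal protein genes sat at the right, at high levels, in a narrow band around the median of 0.24, with RPL39L above it. Below 0 lay 6 members: RPS26, RPS27L, RPS15, RPL41, RPL38 and RPL9. Of these, RPL9 was above 0 under median of ratios and quantile scaling and RPL38 under median of ratios scaling. RPS15 and RPL41 were not followed over the alternatives.

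In the large subunit the difference was largest for RPL31, a protein near the exit of the peptide tunnel. It measured 1025, 991 and 1018 FPKM in the controls and 1210, 1130 and 1745 FPKM in EFTUD2 replicates 1 to 3. All EFTUD2 values were above the controls and replicate 3 was far above the other two, and the log2 difference was 0.40 (SE 0.19, limma adjusted p = 0.413), or 0.21 without EFTUD2 replicate 3. RPL12, which sits at the base of the stalk, measured 740, 947 and 906 FPKM in the controls and 1052, 995 and 1329 FPKM in the EFTUD2 libraries. Control replicate 1 was the lowest of these, and the difference was 0.38 on the log2 scale, or 0.25 without EFTUD2 replicate 3. RPL36A measured 233, 259 and 225 FPKM against 279, 264 and 385 FPKM, with EFTUD2 replicate 2 only just above the highest control. The read-through gene RPL36A-HNRNPH2, which shares sequence with it, measured 20.9, 24.3 and 23.9 FPKM in the controls and 25.7, 24.4 and 18.2 FPKM in the EFTUD2 libraries. RPL3, close to the peptidyl transferase centre, measured 982, 977 and 1016 FPKM against 1198, 1098 and 1536 FPKM, a difference of 0.35 (SE 0.17, limma adjusted p = 0.413).

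Several large subunit proteins have known roles in the stress response, in disease or in single mRNAs. RPL5 and RPL11 form a small particle with ribosomal RNA that binds MDM2 and so stabilises p53 when assembly fails. RPL5 measured 613, 568 and 577 FPKM in the controls and 647, 601 and 845 FPKM in the EFTUD2 libraries, and RPL11 930, 1050 and 984 FPKM against 1074, 1037 and 1416 FPKM. For both the groups overlapped, with differences of 0.24 and 0.24 on the log2 scale (limma adjusted p = 0.494 and 0.506), the second turning to -0.04 under quantile scaling. RPL22, whose loss is known from leukaemia, measured 169, 188 and 186 FPKM against 203, 190 and 254 FPKM, and RPL13A, a subunit with a role in silencing of inflammatory mRNAs, 1422, 1217 and 1341 FPKM against 1461, 1442 and 2138 FPKM. Their groups did not overlap, with EFTUD2 replicate 2 within a few percent of the highest control in both. RPL38, needed for translation of Hox mRNAs in the mouse embryo, measured 476, 418 and 373 FPKM against 386, 356 and 492 FPKM. Its groups overlapped and its difference of -0.04 became 0.07 under median of ratios scaling.

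The most and the least abundant genes of the large subunit overlapped with their controls. RPL37A, which binds zinc, measured 1741, 1819 and 1938 FPKM in the controls and 1779, 1658 and 2535 FPKM in the EFTUD2 libraries. RPL19 measured 1469, 1463 and 1465 FPKM against 1476, 1455 and 1844 FPKM. In both, EFTUD2 replicates 1 and 2 lay close to or under the controls and replicate 3 lay well above them. Their differences of 0.09 and 0.11 were -0.14 and -0.09 under quantile scaling. RPL9, the lowest core gene, measured 26.5, 36.6 and 27.5 FPKM in the controls and 24.3, 27.5 and 38.2 FPKM in the EFTUD2 libraries. The ranges were nearly the same, and control replicate 2 and EFTUD2 replicate 3 were high. Its difference of -0.02 (SE 0.20) became 0.09 under median of ratios and 0.08 under quantile scaling.

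In the small subunit RPS27, a zinc finger protein also known as metallopanstimulin, had the largest increase among genes whose groups did not overlap. It measured 1027, 1109 and 1029 FPKM in the controls and 1240, 1153 and 1724 FPKM in the EFTUD2 libraries, a difference of 0.36 (SE 0.19, limma adjusted p = 0.429), or 0.18 without EFTUD2 replicate 3. RPS20, germline variants of which predispose to colorectal cancer, measured 381, 409 and 411 FPKM against 482, 486 and 567 FPKM. Here EFTUD2 replicates 1 and 2 were both well clear of the controls, unlike in most members, and the difference was 0.35 (SE 0.12, limma adjusted p = 0.402), or 0.28 without EFTUD2 replicate 3. RPS4X, chosen here after its values were seen, measured 504, 611 and 586 FPKM against 673, 683 and 772 FPKM, with control replicate 1 the lowest.

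RPS6 measured 1303, 1355 and 1349 FPKM in the controls and 1484, 1390 and 1792 FPKM in the EFTUD2 libraries. RPS14, lost in a form of myelodysplastic syndrome, measured 956, 972 and 976 FPKM against 1071, 1055 and 1435 FPKM. In both genes all 3 EFTUD2 values were above the controls, with differences of 0.21 and 0.28 on the log2 scale (limma adjusted p = 0.521 and 0.454), the first at -0.03 under quantile scaling. RPSA, which is also known as a laminin receptor, measured 727, 746 and 740 FPKM against 783, 755 and 979 FPKM. Its difference of 0.18 was -0.05 under quantile scaling. RPS19, the gene most often mutated in Diamond-Blackfan anaemia, measured 1136, 1250 and 1329 FPKM against 1280, 1276 and 1906 FPKM, and RPS27A, made as a fusion with ubiquitin, 779, 873 and 787 FPKM against 892, 834 and 1159 FPKM. In both genes the EFTUD2 values overlapped with the controls, as they did in the most abundant members of the subunit. RPS2, first of all 81 in level, measured 1655, 1853 and 1910 FPKM against 1908, 1953 and 2556 FPKM. RPS15A measured 1624, 1729 and 1737 FPKM against 1917, 1707 and 2632 FPKM, and RPS18 1658, 1719 and 1703 FPKM against 1772, 1676 and 2363 FPKM. The difference of RPS2 was 0.23 and that of RPS18 0.18 as deposited, and both were below 0 under quantile scaling, at -0.05 and -0.01.

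RPS26 lay on the other side of the controls from most core genes. This protein lines the channel through which mRNA leaves the small subunit and touches the bases before the start codon, and its mutations cause Diamond-Blackfan anaemia. It measured 233.5, 254.5 and 230.0 FPKM in control replicates 1 to 3 and 189.7, 229.8 and 121.4 FPKM in EFTUD2 replicates 1 to 3. Every EFTUD2 value was under every control, but replicate 2 by a fraction of 1 FPKM, and replicate 3 was at its lowest where the other members were at their highest. The difference was -0.45 on the log2 scale (SE 0.23, limma adjusted p = 0.422), -0.20 without EFTUD2 replicate 3 and between -0.65 and -0.11 over 15 alternatives. It was the only core gene of the 77 with all EFTUD2 libraries below all controls. TSR2, the chaperone that carries RPS26 to the ribosome, chosen here for that role after the values were seen, measured 21.9, 22.7 and 20.5 FPKM in the controls and 18.9, 21.3 and 16.7 FPKM in the EFTUD2 libraries, with overlapping groups.

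The 3 stalk proteins behaved much like the rest. RPLP0, the anchor of the stalk, measured 1294, 1312 and 1340 FPKM in the controls and 1457, 1422 and 1944 FPKM in the EFTUD2 libraries. RPLP2 measured 896, 897 and 886 FPKM against 935, 942 and 1351 FPKM. In these 2 genes every EFTUD2 value was above the controls, with differences of 0.27 and 0.25 (limma adjusted p = 0.466 and 0.519). RPLP1, which pairs with RPLP2 on the stalk, measured 1573, 1455 and 1423 FPKM against 1490, 1441 and 1958 FPKM. Its groups overlapped, and its difference of 0.12 was -0.03 under quantile scaling and -0.02 without EFTUD2 replicate 3.

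A ratio to the median member of the same library takes the shared shift away. On that scale 11 core genes were lower in every EFTUD2 library than in every control and 6 were higher. Measured against the same median member, 32.4% of all genes were lower and 3.83% higher. The median core gene was itself higher in the EFTUD2 libraries, at 788, 788 and 1072 FPKM against 729, 758 and 760 FPKM. The shares over all genes include that shift, so the counts of core genes are not weighed against them. RPS26 had the lowest mean shift between groups, at -0.68. Its log2 distance from the median member was -1.64, -1.57 and -1.72 in the controls and -2.05, -1.78 and -3.14 in the EFTUD2 libraries. Next came RPS15, with a mean shift of -0.29, RPL41 with -0.28, RPL38 with -0.27 and RPL9 with -0.24. The others that were lower, RPL6, RPL35, RPL36, RPL24, RPL37A and RPL19, had shifts between -0.17 and -0.11. The 6 that were higher were RPL31 with a shift of 0.18, RPL3 with 0.13, RPL35A with 0.11, RPS12 with 0.09, RPS14 with 0.06 and RPLP0 with 0.05. These genes were named after their values were seen.

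Of the 4 paralogues, 2 were hardly present. RPL3L was at most 0.19 FPKM in any library, and RPL10L was listed at 0.03 FPKM in control replicate 1 and at 0 in the other libraries. Their parents RPL3 and RPL10 were abundant, with RPL10 at 367, 325 and 363 FPKM in the controls and 388, 377 and 499 FPKM in the EFTUD2 libraries. RPS27L, a target of p53, measured 88.3, 94.6 and 89.3 FPKM in the controls and 86.9, 80.6 and 77.1 FPKM in the EFTUD2 libraries. All EFTUD2 values were under the controls, by a small margin in replicate 1, with a difference of -0.15 (SE 0.10, limma adjusted p = 0.470). Against its parent in the same library, a ratio on which scaling has no effect, RPS27L stood at 8.60%, 8.53% and 8.68% of RPS27 in the controls and at 7.01%, 6.99% and 4.47% in EFTUD2 replicates 1 to 3. The controls lay close together and all EFTUD2 libraries were lower, a log2 difference of -0.51, or -0.30 without EFTUD2 replicate 3. An exact two-sided permutation test gave p = 0.1, the smallest that 3 libraries against 3 allow, or 0.2 adjusted over the 2 ratios tested. The other ratio, RPL3L to RPL3, had an exact p of 1.

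RPL39L, a paralogue best known from the testis and from tumour cells, was listed at 0 in all 3 controls. In EFTUD2 replicates 1 to 3 it measured 3.22, 6.56 and 0.29 FPKM, so the highest value was in replicate 2 and the lowest in replicate 3, the reverse of nearly all core genes. The log2(FPKM + 1) difference of 1.79 (SE 0.58, limma adjusted p = 0.402) depends on the pseudocount and on the libraries, and ran from 1.22 to 4.36 over 15 alternatives. It passed the filter on low values only through the EFTUD2 libraries, so no call on it is read as a result. Its parent RPL39 measured 583, 582 and 532 FPKM in the controls and 587, 575 and 812 FPKM in the EFTUD2 libraries, so RPL39L reached at most 1.14% of RPL39. Of the 10 fibroblast markers examined, 4 passed the filter, COL1A2 was at 0 in every library, and 0 averaged 1 FPKM or more in the controls. Among the 4, 1 lay above every control (7.92% of all genes did), namely COL3A1, which was at 0 in the controls. COL3A1 passed the filter only through the EFTUD2 libraries, so nothing is read from it. The sum of the 10 markers was between 0.53 and 1.65 FPKM in the controls. In EFTUD2 replicates 1 to 3 it was 2.92, 4.91 and 2.35 FPKM, and 2.07 FPKM of the last was PDGFRB. The part of these markers in the values of RPL39L was not tested.

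**Figure D4:**
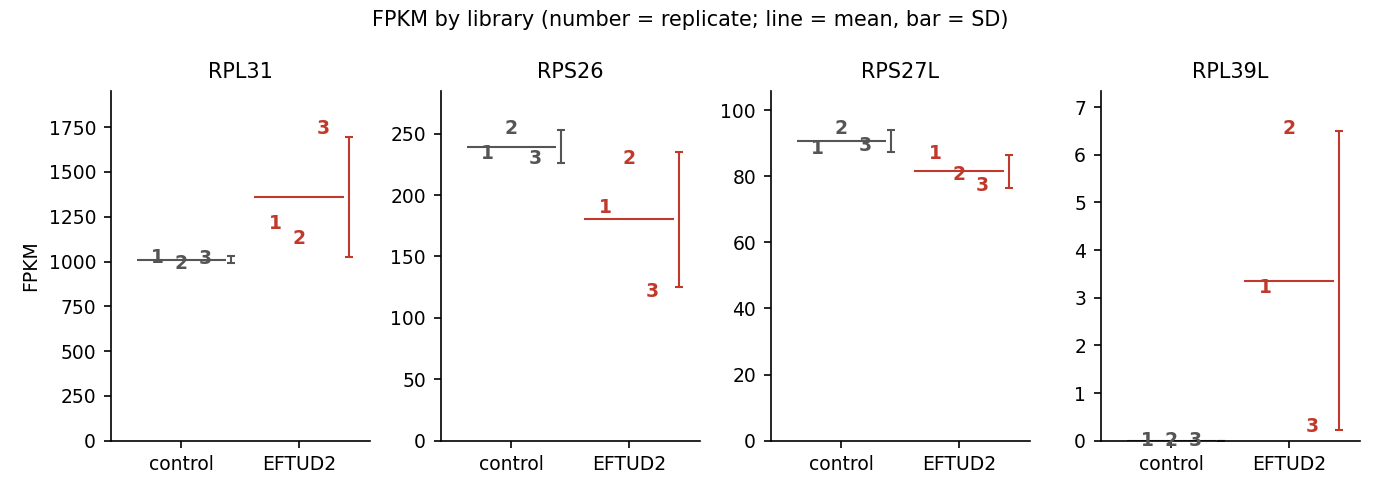
FPKM in each library for RPL31, RPS26, RPS27L and RPL39L (separate axes, each from 0), numbers marking the replicate, lines the group means and bars the SD. EFTUD2 replicate 3 was highest for RPL31 at 1745 FPKM and lowest for RPS26 at 121.4 FPKM, and RPL39L was at 0 in the controls and highest in EFTUD2 replicate 2 at 6.56 FPKM.

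The members were also divided by features of sequence and place, as a description with no test. The median difference was 0.22 in the 50 core genes with the pyrimidine run and 0.24 in the 12 without it. It was 0.28 in the 21 with CCGGAAG in the promoter and 0.22 in the 41 without. RPS26, shown above, has neither. The core genes lie on 21 chromosomes, with 12 on chromosome 19 and 4 on X. Introns of ribosomal protein genes are homes of small nucleolar RNAs: 28 core genes enclose 60 such genes in GENCODE v29, and their median difference was 0.24 beside 0.22 in the rest. Transcript length was that of the longest protein-coding transcript marked as principal in GENCODE v29, or of the longest protein-coding one where none was marked. By this length, the 25 shortest core genes (359 to 853 bases) had a median difference of 0.22, the 27 of middle length 0.23 and the 25 longest (1442 to 7686 bases) 0.24. Over the 77 core genes Spearman's rho of the difference was 0.04 with transcript length and 0.16 with mean FPKM, given as a description because the genes share the same libraries.

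Genes listed as sharing the TOP tract, other than ribosomal proteins, mostly lay on the same side of 0 as the members. The start sites of this list were not searched for the tract. The list held 21 genes, mostly translation factors, of which 20 had a difference above 0 (37.3% of all genes did). Above every control lay 7 (7.92% of all genes did), with 0 below (19.4% of all genes were). None passed the test (limma, smallest adjusted p 0.346), and 3 were higher at an unadjusted p under 0.05, against 4.4% of all genes. The count of 7 was 14 without EFTUD2 replicate 2, against 10.5% of all genes, and that of 3 was 1 in most comparisons with a library left out. Their median was 0.21 on the log2 scale, 0.11 without EFTUD2 replicate 3 and 0.13 under quantile scaling. By library the median was 0.16, 0.03 and 0.40 in EFTUD2 replicates 1 to 3. EEF1A1, which delivers aminoacyl-tRNA to the ribosome, measured 3294, 3968 and 4060 FPKM in the controls and 4640, 4312 and 6185 FPKM in the EFTUD2 libraries. EEF1B2, the gene of the list below 0, measured 67.0, 100.4 and 77.6 FPKM against 74.1, 79.1 and 30.8 FPKM. Its groups overlapped, with a difference of -0.50. VIM, an intermediate filament gene on the same list, measured 0.06, 0.08 and 0.12 FPKM against 23.2, 59.6 and 2.87 FPKM. VIM followed the order of RPL39L and not that of most of the translation factors. It passed the filter on low values only through the EFTUD2 libraries. It is among the 20, the 7 and the 3 counted above and gave the smallest adjusted p, so nothing is read from its part in them.

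Genes that build ribosomes lay on the other side of 0. Of 54 ribosome biogenesis genes 53 had a difference below 0, against 62.7% of all genes, and 29 were below every control, against 19.4%. At an unadjusted p under 0.05, 12 were lower, against 7.9% of all genes, but none passed the test (limma, smallest adjusted p 0.371). The count of 12 was 3 without control replicate 1 or control replicate 2, 26 without EFTUD2 replicate 2, 19 without EFTUD2 replicate 3 and 25 with the replicate number as a block. Of all genes tested, 664 of 17148 and 719 of 17293 were lower at that p without control replicate 1 or 2. The same count was 1538 of 17071 without EFTUD2 replicate 2, 1521 of 17163 without EFTUD2 replicate 3 and 1253 of 17222 with the block. Their median was -0.45, and -0.22 without EFTUD2 replicate 3. By library the median was -0.27, -0.17 and -0.94 in EFTUD2 replicates 1 to 3, so that replicate 3 was again the farthest from the controls. UTP4, of the small subunit processome, measured 52.3, 57.5 and 45.7 FPKM in the controls and 38.9, 40.3 and 13.7 FPKM in the EFTUD2 libraries. NOP2, a nucleolar RNA methyltransferase, measured 39.0, 42.2 and 32.6 FPKM against 25.6, 28.8 and 13.1 FPKM. All EFTUD2 values of both were under the controls.

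The polymerases of ribosomal RNA and transfer RNA were on the same side. Among 33 subunits and factors of RNA polymerases I and III, 26 had a difference below 0, against 62.7% of all genes. Below every control were 12, against 19.4% of all genes, and above every control 0, against 7.92%. Their median was -0.29, and 6 were lower at an unadjusted p under 0.05 against 7.9% of all genes. Without control replicate 1 the count below every control was 18 and that at an unadjusted p under 0.05 was 0, as the second also was without control replicate 2. Of all genes tested without control replicate 1, 4565 of 17148 were below every control and 664 were lower at that p. Without control replicate 2, 719 of 17293 were lower at that p. POLR3C measured 10.1, 11.4 and 9.05 FPKM in the controls and 7.39, 8.69 and 2.39 FPKM in the EFTUD2 libraries, and POLR1C, shared by both enzymes, 20.2, 26.0 and 21.1 FPKM against 17.6, 19.7 and 8.18 FPKM. Of 17 dedicated chaperones and assembly factors 13 were below 0, against 62.7% of all genes, and 6 below every control, against 19.4%, with a median of -0.22. The count of 6 below every control was 10 without EFTUD2 replicate 2, against 4537 of 17071 genes tested. None of either list passed the test (limma, smallest adjusted p 0.402 in both), and 3 of the 17 were lower at an unadjusted p under 0.05, against 7.9% of all genes. Among these GRWD1, which escorts RPL3, measured 23.6, 27.8 and 22.4 FPKM against 17.9, 20.9 and 6.89 FPKM, where RPL3 itself was higher, and HEATR3, which escorts RPL5, measured 13.9, 16.8 and 14.6 FPKM against 13.6, 12.4 and 7.21 FPKM. Without EFTUD2 replicate 3 the medians of the polymerases and the chaperones were -0.15 and -0.11.

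The mitochondrial ribosome, built from a separate set of proteins, lay on the other side of 0 from the cytosolic one. Of its 77 protein genes 72 had a difference below 0, against 62.7% of all genes. Below every control were 27, against the same 19.4%, and 1 was above, against 7.92%. At an unadjusted p under 0.05, 18 were lower, against 7.9% of all genes. None passed the test (limma, smallest adjusted p 0.364). Without control replicate 1, control replicate 2 and EFTUD2 replicate 2 in turn the count of 18 was 9, 8 and 27. Of all genes tested 664 of 17148, 719 of 17293 and 1538 of 17071 were lower at that p. The count of 27 below every control was 48, 27 and 46, against 4565, 4120 and 4537 of all genes in the same comparisons. Their median was -0.26, -0.12 without EFTUD2 replicate 3, and -0.18, -0.07 and -0.52 in EFTUD2 replicates 1 to 3. MRPL1 measured 19.4, 21.0 and 18.6 FPKM in the controls and 16.5, 16 and 6.57 FPKM in the EFTUD2 libraries, and MRPL47 37.3, 37.2 and 30.6 FPKM against 27.5, 27.1 and 16.8 FPKM. MRPL53, the only one above every control, measured 24.7, 24.9 and 24.9 FPKM against 25.1, 26.4 and 26.1 FPKM, a difference of 0.06.

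Known regulators of ribosomal protein mRNA had counts not far from those of the whole table. Of 23 genes 17 had a difference below 0 (all genes 62.7%), 5 were below every control (all genes 19.4%) and 1 above (all genes 7.92%), with a median of -0.11 that was -0.03 without EFTUD2 replicate 3 and 0.01 under quantile scaling, and none passed the test (limma, smallest adjusted p 0.402, 3 lower at an unadjusted p under 0.05, all genes 7.9%). The count of 5 was 8 without control replicate 3 or EFTUD2 replicate 2, when 4042 of 17262 and 4537 of 17071 genes tested were below every control. MYC, which drives transcription of these genes, measured 81.9, 83.4 and 83.2 FPKM in the controls and 89.7, 83.5 and 86.7 FPKM in the EFTUD2 libraries, all EFTUD2 values above the controls with a difference of 0.06. RPTOR, a subunit of the mTOR complex that acts on TOP mRNAs, measured 17.4, 18.3 and 16.7 FPKM against 13.8, 14.3 and 7.98 FPKM, and GABPB1, of an ETS family factor, 13.3, 10.98 and 9.71 FPKM against 9.02, 8.78 and 6.62 FPKM. In LARP1, added here for its role, the groups overlapped, at 44.4, 57.2 and 48.7 FPKM against 49.8, 49.1 and 35.8 FPKM.

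**Figure D5:**
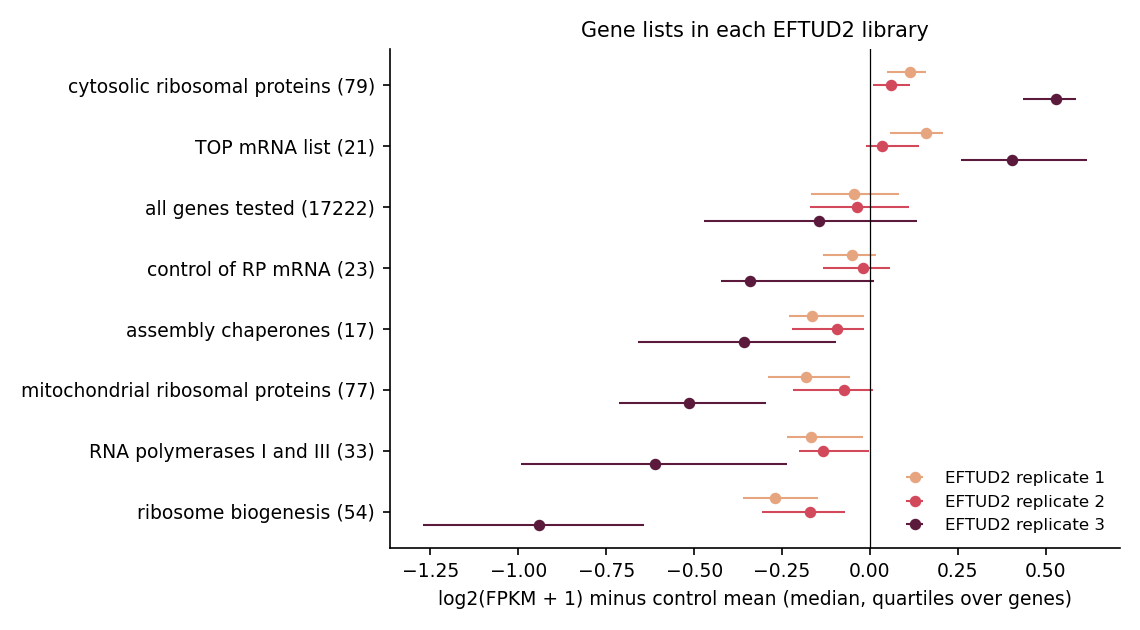
Median (points) and quartiles (lines) over the genes of each list of the difference from the control mean in log2(FPKM + 1), for EFTUD2 replicates 1, 2 and 3, with the number of genes tested in brackets. The ribosomal proteins and the TOP list lay to the right of 0 and the biogenesis, polymerase and mitochondrial ribosomal lists to the left, with replicate 3 farthest from 0 in each, at 0.53 for the ribosomal proteins and -0.94 for ribosome biogenesis. Under quantile scaling the median of the ribosomal proteins was 0.02 and that of the regulators 0.01.

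Some ribosomal proteins and paralogues have symbols that the naming rule does not cover. RACK1, a signalling scaffold on the small subunit, measured 839, 858 and 896 FPKM in the controls and 999, 947 and 1250 FPKM in the EFTUD2 libraries. Its EFTUD2 values lay above every control, as those of 36 members did. The paralogue RPL7L1 measured 101.6, 97.5 and 87.2 FPKM against 75.02, 72.7 and 45.6 FPKM, below every control, with a difference of -0.59 (limma adjusted p = 0.402). In FAU, RPL36AL, RPL22L1 and RPL26L1 the groups overlapped, with differences of -0.06, -0.19, -0.16 and -0.26.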

How the data were processed

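Poly-A selected RNA, isolated with TRIzol, was read on a BGISEQ-500 instrument. The authors deposited 1 table of FPKM per gene and library, rounded to 2 decimals. The submitters' processing notes name HISAT2, Bowtie2 and RSEM among the tools and the build hg38, without versions. The annotation is not given in the sources used here, and no read counts were used. All 81 members stood under Entrez numbers that matched their NCBI symbols.

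Values were analysed as log2(FPKM + 1) for the 17222 genes that averaged 0.1 FPKM or more. Groups were compared with limma 3.58.1 (lmFit, eBayes with trend) in R 4.3.3, two-sided, at a Benjamini-Hochberg adjusted p under 0.05, after a test on simulated data. Ratios were compared by an exact permutation test. Python 3.11.15, pandas 2.3.3 and matplotlib 3.10.9 served for the rest. The members and lists were chosen with earlier results of these data known. Genes named were the 6 members with the highest and the 4 with the lowest mean, the 6 largest increases and up to 6 largest decreases without overlap between groups, the paralogues and their parents, members with known roles, and the largest change of each list in either direction among genes without overlap. Some results for single genes outside the members are not given. A list of small nucleolar RNA host genes matched 0 genes of the table. Macrophage markers summed to between 17.7 and 31.5 FPKM in the controls and to 27.7, 35.7 and 26.6 FPKM in the EFTUD2 libraries. Endothelial markers summed to between 16.9 and 19.98 FPKM and to 11.4, 8.56 and 5.9 FPKM. CD68 held most of the macrophage sum. ESAM held most of the endothelial sum, at 14.5, 15.9 and 15.7 FPKM against 8.2, 5.97 and 3.75 FPKM. Of 6 endothelial markers tested, 2 lay above every control (VWF and CDH5) and 2 below, against 7.92% and 19.4% of all genes. CDH5 passed the filter only through the EFTUD2 libraries. No cell type is read from these sums. Alternatives were a pseudocount of 0.1, no filter or one at 1 FPKM, median of ratios, quantile and common-sum scaling, robust empirical Bayes, array weights, a replicate block, and each library left out in turn. Promoters were from RefSeq (GRCh38.p14).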

Additional observations from a re-analysis of the deposited data

How the results depend on the processing

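Over the alternatives run for each, the median of the members stayed above 0 (0.24 as reported, 0.02 to 0.35) and the ratio of summed FPKM above 1 (1.18 as reported, 1.06 to 1.29). No gene was called as reported. With array weights 1246 genes and 1 member (RPL39L) were called, and leaving out single libraries gave 0 to 167 genes and 0 to 1 members, with calls only without EFTUD2 replicate 3. The count of members above every control, 36 as reported, was 57 under median of ratios, 5 under quantile and 22 under common-sum scaling, and 36 to 56 with a library left out. The count below every control, 2 as reported, was 0 under median of ratios, 6 under quantile scaling and 2 to 4 with a library left out. Of 48 single genes 38, over 15 alternatives, kept their direction throughout. Under quantile scaling the differences were -0.053 for RPS2, -0.139 for RPL37A, -0.013 for RPS18, -0.028 for RPLP1, -0.091 for RPL19, 0.084 for RPL9, -0.037 for RPL11, -0.033 for RPS6 and -0.049 for RPSA. With array weights they were -0.152 for RPL37A and 0.022 for RPL9, and under median of ratios scaling 0.092 for RPL9 and 0.072 for RPL38. With a library left out they ran from -0.092 to 0.214 for RPL37A, from -0.017 to 0.204 for RPLP1, from -7.7e-05 to 0.171 for RPL19, from -0.203 to 0.12 for RPL9 and from -0.181 to 0.051 for RPL38. EFTUD2, VIM and RPL39L (at 0 in the controls) passed the threshold with array weights and without EFTUD2 replicate 3. The cause was not tested. VIM and RPL39L passed the filter on low values only through the EFTUD2 libraries, so nothing is read from their calls. Deviations of same-numbered libraries correlated at -0.30, 0.35 and -0.09, and those of differently numbered ones ran from -0.40 to 0.38. The numbers were therefore not taken as pairs. The replicate block called 0 genes and 0 members, with 1 member at an unadjusted p under 0.05. The read depth is unknown, so the precision of low values such as those of RPL39L cannot be given.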
